A study of Homo sapiens with 24 samples.

Results

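The enzymes that make thymidylate and carry folate-bound carbon units were followed in 24 RNA-seq libraries of clear cell renal cell carcinoma (ccRCC) cells. The 8 genes, of 26475 in the tables, were DTYMK, TK1 and DUT on the thymidylate side and SHMT1, MTHFD1, SHMT2, MTHFD2 and MTHFD1L on the folate side. They were taken by name, a set chosen by the expression values of DTYMK and SHMT1, which were among the genes most steadily lower in shPAX8 libraries of both cell lines. The values of shPAX8 against sgNTC18 libraries are therefore a description for these 8 genes, and no test is given for them. All 8 were detected in all 24 libraries and passed the filter on low counts in both lines. The lines are 786-M1A and OS-LM1, metastatic derivatives of the human ccRCC lines 786-O and OS-RC2, both with a mutated VHL gene. Each line had 4 libraries with the hairpin shPAX8-1, 4 with the hairpin shPAX8-2, both directed against the renal lineage factor PAX8, and 4 with sgNTC18, a CRISPR guide without a target. The study's methods place the hairpins in doxycycline-inducible plasmids and name a control hairpin for the depletion experiment, which was not analysed here. A difference between shPAX8 and sgNTC18 libraries thus holds the loss of PAX8 together with the kind of construct and any difference in doxycycline exposure. These cannot be told apart, and the RNA-seq methods do not say which cells received the drug. All cells were cultured in RPMI with 10% serum. The labels name a KAPA stranded kit and the methods Lexogen kits for the libraries.

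Thymidine triphosphate is the only DNA precursor with no ribonucleotide counterpart, and cells make its monophosphate by a pair of routes. Thymidine kinase phosphorylates salvaged thymidine, and thymidylate synthase adds a carbon unit, brought by a folate, to deoxyuridine monophosphate. That carbon unit comes largely from serine, which SHMT1 cleaves in the cytosol and SHMT2 in mitochondria. MTHFD1 in the cytosol, and MTHFD2 with MTHFD1L in mitochondria, then interconvert the folate-bound units, and the mitochondrial branch releases formate that the cytosolic branch uses again. Several of these genes are known to be transcribed most in cells that copy their DNA, and MTHFD2 is known as a target of the stress factor ATF4.

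The hairpin guides are shown because every comparison of libraries turns on them. PAX8 is read from the minus strand of chromosome 2 (GRCh38), and each guide is the reverse complement of its transcript over the whole length. The shPAX8-1 site lies in a coding exon at chr2:113241690-113241711 and the shPAX8-2 site in an untranslated part of an exon at chr2:113218122-113218143.
shPAX8-1: tgtgagtcaatgcttagtcggc
shPAX8-2: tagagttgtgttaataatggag

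The promoters of DTYMK and SHMT1, which stood for the choice of the genes, are shown with their CCAAT boxes (CCAAT, or ATTGG on the other strand) in capitals. They are the 250 bases before the start of each gene in RefSeq (GRCh38.p14, minus strand), chr2:241686816-241687065 for DTYMK and chr17:18363551-18363800 for SHMT1.
DTYMK: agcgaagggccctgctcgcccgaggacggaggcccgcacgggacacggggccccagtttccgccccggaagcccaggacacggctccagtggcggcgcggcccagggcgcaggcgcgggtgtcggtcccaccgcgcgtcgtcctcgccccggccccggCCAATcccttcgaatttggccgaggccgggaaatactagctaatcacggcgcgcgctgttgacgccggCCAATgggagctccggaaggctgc
SHMT1: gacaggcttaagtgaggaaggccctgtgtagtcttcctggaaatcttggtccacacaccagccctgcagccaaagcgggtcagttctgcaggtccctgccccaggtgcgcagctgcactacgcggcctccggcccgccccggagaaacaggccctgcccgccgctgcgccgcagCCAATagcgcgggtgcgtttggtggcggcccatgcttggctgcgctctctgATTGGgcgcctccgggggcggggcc
Both windows held 2 CCAAT boxes, 92 and 24 bases before the start in DTYMK and 76 and 25 bases before it in SHMT1. RefSeq promoters were matched for 7 of the 8 genes, with the first entry taken where a gene had several, and not for SHMT2. A CCAAT box was found in 5 of the 7 windows, namely DTYMK, SHMT1, MTHFD1, MTHFD2 and MTHFD1L, and in 33.0% of the windows of all 27305 promoters in the table. None of 4 E2F words (TTTCCCGC, TTTGGCGC, TTTCGCGC and TTTGCCGC, both strands) was found in the 7 windows, and 2.8% of all promoters held one. The E-box CACGTG was found in MTHFD1 and MTHFD1L and in 6.5% of all promoters, TGATGNAA in MTHFD1L and in 3.2%. Neither GTCATGC nor GTCACGC was found in the 7, and 1.4% and 2.3% of all promoters held them. These matches are a description of the letters.

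The libraries held between 11634419 and 52059375 expected counts (median 18200166 with shPAX8 and 32029482 with sgNTC18). The 8 genes had between 161.6 counts (SHMT1, in 786-M1A with shPAX8-2) and 12315 counts (TK1, in OS-LM1 with sgNTC18). Levels below are in CPM, counts scaled to the library size after TMM normalisation, and in TPM, which also divides by length, where different genes are set side by side. PAX8 was lower in every shPAX8 library, at 291.6 to 393.2 CPM in 786-M1A with sgNTC18, 14.8 to 22.9 with shPAX8-1 and 40.0 to 45.5 with shPAX8-2. The OS-LM1 values were 244.7 to 279.0, 59.8 to 89.2 and 63.8 to 97.0 CPM. Renal epithelial markers were present, 7 of 8 at a mean of at least 1 TPM in each group of 786-M1A and 8 of 8 in each group of OS-LM1. Their summed level was 844 to 939 TPM with sgNTC18 and 176 to 332 with shPAX8 in 786-M1A, and 863 to 981 and 860 to 1296 TPM in OS-LM1. Of 8 markers of blood, endothelial and stromal cells, CD3E was at 0 in all libraries and PTPRC, PECAM1, CDH5 and HBB reached at most 0.36 TPM. COL3A1, a stromal collagen, reached at most 0.04 TPM in 786-M1A and 0.03 in OS-LM1 with sgNTC18, but 5.95 TPM in OS-LM1 with shPAX8-1 and 1.07 with shPAX8-2. CD68 and PDGFRB (the latter in 786-M1A) made up nearly all of the list's sum, which was 378 to 435 TPM with sgNTC18 and 232 to 614 with shPAX8 in 786-M1A, and 73.6 to 85.5 and 190.4 to 327.9 TPM in OS-LM1. In cultures, fewer cells in a state and less RNA per cell cannot be told apart.

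DTYMK, the kinase that turns thymidine monophosphate into the diphosphate and stands where synthesis and salvage meet, was far below its sgNTC18 level in the shPAX8 libraries of both lines. In 786-M1A it was at 113.3, 127.9, 119.8 and 116.0 CPM in sgNTC18 replicates 1 to 4, at 32.9, 37.0, 35.7 and 37.3 CPM with shPAX8-1 and at 30.8, 34.8, 35.0 and 39.4 CPM with shPAX8-2. The OS-LM1 levels were 73.5, 63.1, 67.1 and 65.0 CPM with sgNTC18, at 13.2, 15.6, 18.3 and 15.1 with shPAX8-1 and at 16.2, 15.8, 15.7 and 14.6 with shPAX8-2. No shPAX8 library reached an sgNTC18 library, and the hairpins overlapped with each other in both lines. The log2 fold change against sgNTC18 was -1.73 (SE 0.08, 8 against 4 libraries), a 3.32-fold lower level, in 786-M1A and -2.12 (SE 0.08), a 4.35-fold lower level, in OS-LM1.

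TK1, the cytosolic thymidine kinase of the salvage route, was the most abundant of the 8 with sgNTC18 and had the largest difference of the 8 in both lines. In 786-M1A it was at 256.4, 333.6, 324.1 and 296.5 CPM with sgNTC18, at 39.8, 49.8, 27.1 and 27.8 with shPAX8-1 and at 68.8, 77.7, 69.0 and 84.6 with shPAX8-2. Those of OS-LM1 held 347.0, 267.2, 307.7 and 268.8 CPM with sgNTC18, at 31.4, 34.4, 27.9 and 28.9 with shPAX8-1 and at 53.4, 48.2, 62.4 and 51.5 with shPAX8-2. All 3 constructs were separated from each other in each line, with shPAX8-1 lowest. Against sgNTC18 the log2 fold change was -2.52 (SE 0.14) in 786-M1A and -2.88 (SE 0.08) in OS-LM1. DUT, the enzyme that hydrolyses dUTP and so feeds deoxyuridine monophosphate to thymidylate synthase, was between 60.7 and 76.2 CPM with sgNTC18 and between 27.0 and 38.1 with shPAX8 in 786-M1A, and between 78.9 and 83.8 and between 27.8 and 34.2 CPM in OS-LM1. Its log2 fold change was -1.25 (SE 0.10) and -1.38 (SE 0.07).

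**Figure D1:**
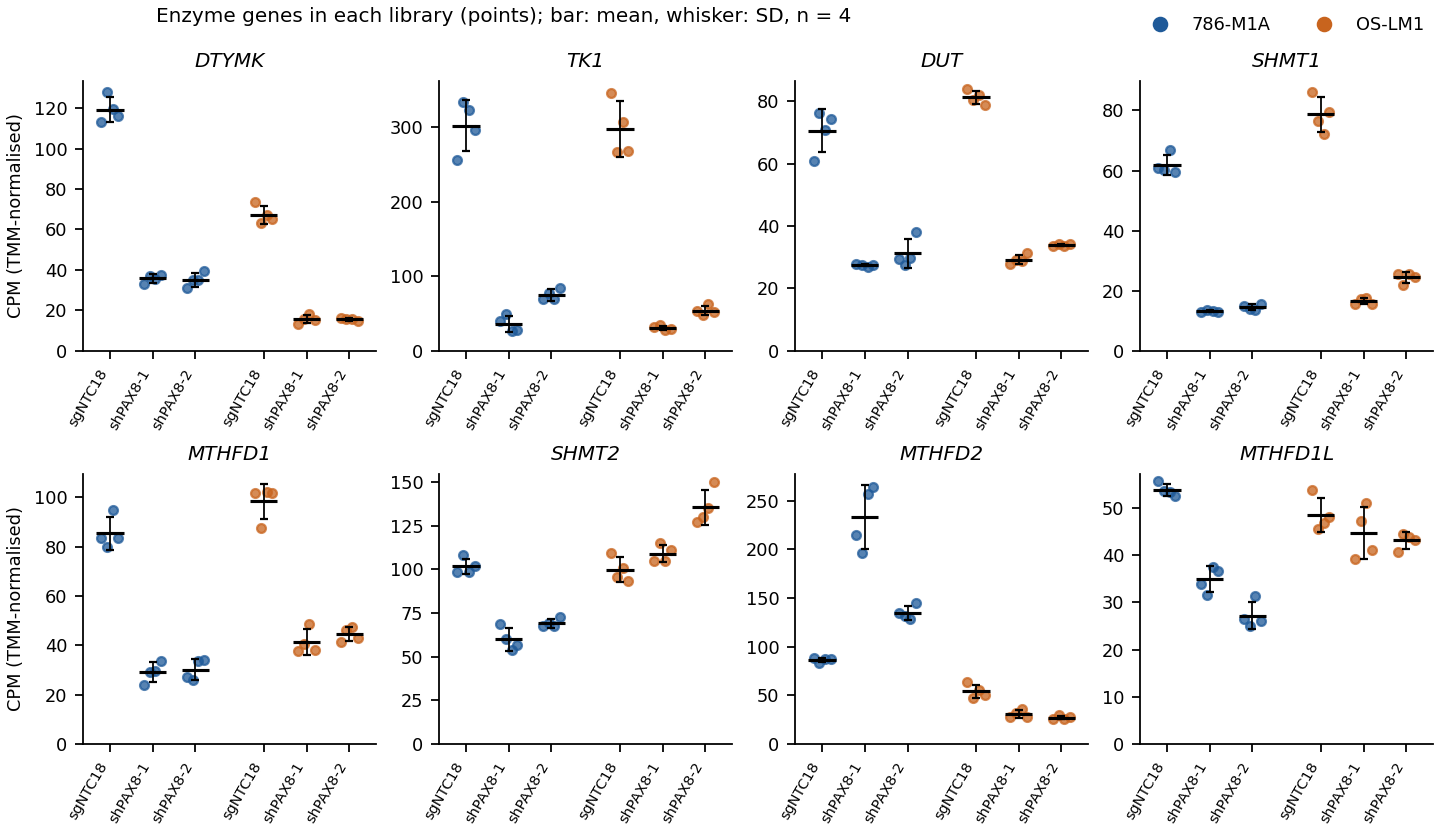
TMM-normalised CPM of the 8 genes in each library, with 1 point per library, the mean as a bar and the SD as a whisker (n = 4 per group), 786-M1A in blue and OS-LM1 in orange. DTYMK, TK1, DUT, SHMT1 and MTHFD1 sit below their sgNTC18 libraries with both hairpins in both lines, while MTHFD2 sits above them in 786-M1A (128.2 to 264.0 against 83.0 to 88.0) and below them in OS-LM1 (25.5 to 35.4 against 47.1 to 63.2).

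On the folate side the cytosolic enzymes were lower with shPAX8 in both lines. SHMT1, the cytosolic serine hydroxymethyltransferase, was at 60.9, 60.1, 66.7 and 59.4 CPM in 786-M1A with sgNTC18, at 13.0, 13.4, 13.3 and 12.9 with shPAX8-1 and at 14.9, 14.0, 13.4 and 15.5 with shPAX8-2. In OS-LM1 it was at 86.3, 76.6, 72.3 and 79.6 CPM with sgNTC18, at 15.5, 17.2, 17.6 and 15.6 with shPAX8-1 and at 25.6, 21.9, 25.7 and 24.6 with shPAX8-2. The hairpin libraries were far below the sgNTC18 libraries in each line, and in OS-LM1 the hairpins were also apart from each other. The log2 fold change was -2.14 (SE 0.08), 4.42-fold lower, in 786-M1A and -1.98 (SE 0.08), 3.95-fold lower, in OS-LM1. MTHFD1, which carries dehydrogenase, cyclohydrolase and synthetase activity in a single cytosolic protein, was at 79.8 to 95.0 CPM with sgNTC18 and 23.9 to 34.0 with shPAX8 in 786-M1A, and at 87.7 to 102.2 and 37.7 to 48.8 CPM in OS-LM1. Its log2 fold change was -1.51 (SE 0.11) and -1.21 (SE 0.08).

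The mitochondrial enzymes had another pattern in each line. MTHFD2, the mitochondrial methylene-folate dehydrogenase and cyclohydrolase, was at 88.0, 83.0, 86.9 and 87.5 CPM in 786-M1A with sgNTC18, at 214.7, 196.4, 256.9 and 264.0 with shPAX8-1 and at 134.4, 132.0, 128.2 and 145.1 with shPAX8-2. In OS-LM1 it was at 63.2, 47.1, 55.5 and 49.9 CPM with sgNTC18, at 27.9, 31.9, 35.4 and 27.7 with shPAX8-1 and at 25.5, 29.3, 25.8 and 27.2 with shPAX8-2. Every hairpin library was thus above every sgNTC18 library in 786-M1A and below every one in OS-LM1. The log2 fold change was 1.06 (SE 0.09), 2.08-fold higher, in 786-M1A and -0.92 (SE 0.09), 1.89-fold lower, in OS-LM1, and the difference between the lines in this contrast was not tested. Of the genes tested in both lines, 4.29% had no overlap in either line and lay on opposite sides.

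SHMT2, the mitochondrial serine hydroxymethyltransferase, was at 98.3, 108.0, 98.8 and 101.7 CPM in 786-M1A with sgNTC18, at 68.8, 59.9, 54.0 and 56.8 with shPAX8-1 and at 67.4, 69.3, 67.3 and 72.6 with shPAX8-2. In OS-LM1 it was at 109.3, 95.8, 101.0 and 93.5 CPM with sgNTC18, at 105.0, 114.9, 104.8 and 111.3 with shPAX8-1 and at 127.4, 130.0, 135.3 and 150.0 with shPAX8-2. The hairpin libraries were lower in 786-M1A (log2 fold change -0.64, SE 0.08), and in OS-LM1 those with shPAX8-1 overlapped with sgNTC18 while those with shPAX8-2 lay above (log2 fold change of both together 0.27, SE 0.07). MTHFD1L, the mitochondrial formyl-folate synthetase that releases formate, was at 52.5 to 55.7 CPM with sgNTC18 and 25.0 to 37.6 with shPAX8 in 786-M1A (log2 fold change -0.78, SE 0.09). In OS-LM1 its libraries overlapped, at 45.5 to 53.8 and 39.2 to 51.1 CPM (log2 fold change -0.15, SE 0.08).

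In all, 7 of the 8 genes were lower in every shPAX8 library than in any sgNTC18 library of 786-M1A and 1 was higher, 6 were lower in OS-LM1, and 5 were lower in both lines. Of all genes tested 24.9% were so placed below and 22.4% above in 786-M1A, 25.8% below in OS-LM1 and 13.4% below in both, and since the choice of genes used this contrast, nothing is read from these counts. The median log2 fold change of the 8 was -1.38 in 786-M1A and -1.29 in OS-LM1, beside 0.04 and -0.01 over all genes tested. With the trend of each library's counts with GC content removed, the 8 kept their direction in both lines, with TK1 at -2.17 and -2.47, SHMT1 at -2.02 and -1.81, DTYMK at -1.41 and -1.75 and MTHFD2 at 0.83 and -1.13 in 786-M1A and OS-LM1. SHMT2 moved to -0.39 and 0.60, and MTHFD1L in OS-LM1 to -0.03.

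**Figure D2:**
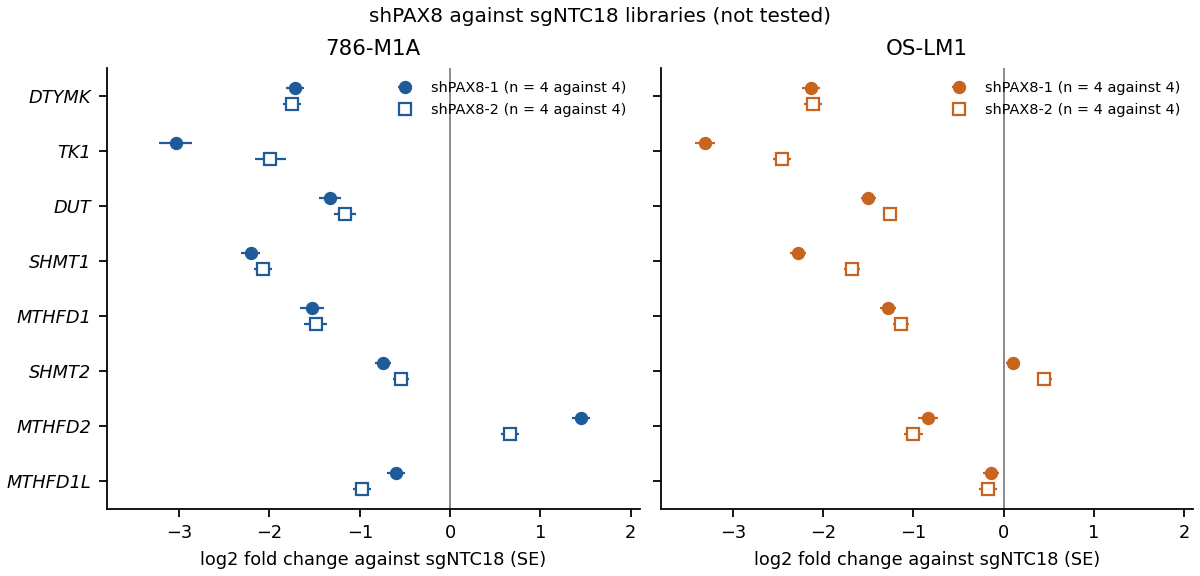
Log2 fold change of each gene with each hairpin against sgNTC18 (4 against 4 libraries, whiskers are the SE), 786-M1A on the left and OS-LM1 on the right, shown without a test. MTHFD2 lies at 1.45 and 0.66 in 786-M1A and at -0.84 and -1.0 in OS-LM1 for shPAX8-1 and shPAX8-2, and SHMT2 at -0.74 and -0.54 and at 0.10 and 0.45.

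The order of the genes by abundance, set on the TPM scale, changed with the constructs. With sgNTC18 TK1 stood first and DTYMK second in both lines, at 355.9 ± 31.1 and 189.6 ± 7.90 TPM (SD, n = 4) in 786-M1A and at 331.2 ± 41.0 and 100.1 ± 6.75 TPM in OS-LM1. With both hairpins MTHFD2 stood first in 786-M1A, at 182.7 ± 22.7 TPM with shPAX8-1 and 105.1 ± 5.09 with shPAX8-2. In OS-LM1 SHMT2 stood first, at 91.0 ± 10.3 and 108.6 ± 3.86 TPM. SHMT1 was last of the 8 in all 4 hairpin groups, between 9.14 and 16.7 TPM on average, after 45.8 ± 2.11 and 54.5 ± 4.28 TPM with sgNTC18.

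The ratio of the transcripts of mitochondrial to cytosolic enzymes within a library followed from these levels, and protein was not measured. The ratio of SHMT2 to SHMT1 in TPM was 1.75 to 2.12 in 786-M1A with sgNTC18, 4.80 to 6.14 with shPAX8-1 and 5.21 to 5.92 with shPAX8-2. The OS-LM1 ratios were 1.39 to 1.66, 6.91 to 8.28 and 5.85 to 7.12. No hairpin library overlapped with sgNTC18 in either line. The ratio of MTHFD2 to MTHFD1 was 1.44 to 1.66 in 786-M1A with sgNTC18, 10.6 to 14.2 with shPAX8-1 and 6.0 to 8.06 with shPAX8-2. In OS-LM1 it was 0.773 to 0.980, 1.15 to 1.23 and 0.860 to 1.00, where shPAX8-2 overlapped with sgNTC18. These ratios use the same contrast as the choice of genes and were not tested.

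**Figure D3:**
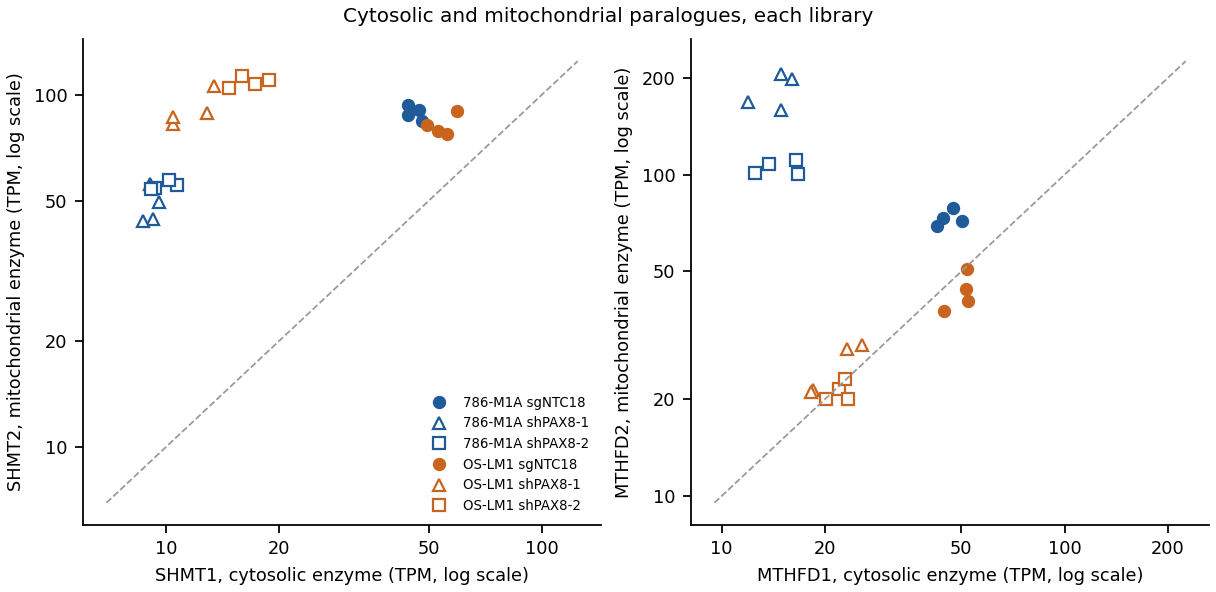
TPM of the cytosolic enzyme (horizontal, log scale) against its mitochondrial counterpart (vertical, log scale) in each of the 24 libraries, SHMT1 and SHMT2 on the left and MTHFD1 and MTHFD2 on the right, with the dashed line marking equal levels. The hairpin libraries (open symbols) lie to the left of the sgNTC18 libraries (filled) in both panels, and every library lies above the line for SHMT (ratios of 1.39 to 8.28). For MTHFD the 786-M1A hairpin libraries lie far above the line (6.0 to 14.2) and the OS-LM1 libraries near it (0.773 to 1.23).

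The hairpins were also compared with each other. This contrast did not choose the genes, but a choice for steadily lower levels across shPAX8 libraries favours hairpins that are alike, so the values of DTYMK and SHMT1 are not independent of it, and the sgNTC18 libraries entered the fit for the estimate of the spread. In 786-M1A PAX8 itself was 2.26-fold lower in shPAX8-1 than in shPAX8-2 libraries (log2 fold change -1.18, SE 0.15, adjusted p = 4e-05, edgeR quasi-likelihood test) and was not called in OS-LM1 (-0.05, SE 0.12, adjusted p = 0.80). Of the 8 genes, 3 were called in 786-M1A, beside 47.1% of all genes tested, and 4 in OS-LM1, beside 29.1%. TK1 was lower with shPAX8-1 in both lines, 2.07-fold in 786-M1A (log2 fold change -1.05, SE 0.17, adjusted p = 3e-04, edgeR) and 1.80-fold in OS-LM1 (-0.85, SE 0.10, adjusted p = 5e-06). In both lines the 4 libraries of one hairpin lay apart from the 4 of the other. S phase genes were taken from the Seurat package's cell cycle list, except TYMS, RRM1 and RRM2, which stand in the deoxynucleotide list below. These 40 genes also differed between the hairpins. With shPAX8-1 21 were lower and 2 higher in 786-M1A (22.9% and 24.2% of all genes). In OS-LM1 32 were lower and none higher (16.7% and 12.4% of all genes). Their part in the TK1 result was not tested.

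In 786-M1A MTHFD2 was 1.73-fold higher in shPAX8-1 than in shPAX8-2 libraries (log2 fold change 0.79, SE 0.10, adjusted p = 4.7e-05, edgeR) and was not called in OS-LM1 (0.16, SE 0.11, adjusted p = 0.29). The difference between the lines was itself called (-0.60 for OS-LM1 minus 786-M1A, SE 0.15, adjusted p = 0.0040, edgeR), and not when shPAX8-1 replicates 3 and 4 of 786-M1A were left out (-0.42, adjusted p = 0.053). The list of the ATF4 response has 14 genes, ATF4 itself among them. Of these 5 were higher with shPAX8-1 in 786-M1A and 7 in OS-LM1, where MTHFD2 was not called, and none was lower in either line (24.2% and 12.4% of all genes were higher). Their part in the MTHFD2 result was not tested. SHMT1 was 1.52-fold lower with shPAX8-1 in OS-LM1 (-0.60, SE 0.09, adjusted p = 8.9e-05) and was not called in 786-M1A (-0.14, SE 0.10, adjusted p = 0.27), and this difference between the lines was called too (-0.43, SE 0.13, adjusted p = 0.012, edgeR). These were the only 2 of the 8 called in the test between the lines, beside 27.2% of all genes. SHMT2 was 1.27-fold lower with shPAX8-1 in OS-LM1 (-0.35, SE 0.08, adjusted p = 0.0029) and not called in 786-M1A (-0.21, SE 0.09, adjusted p = 0.085), with no call for the difference between the lines (-0.11, SE 0.12, adjusted p = 0.53).

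The other genes moved little between the hairpins. MTHFD1L was 1.29-fold higher with shPAX8-1 in 786-M1A (0.36, SE 0.10, adjusted p = 0.010, edgeR), a call lost without shPAX8-1 replicates 3 and 4 (0.28, adjusted p = 0.092). DUT was 1.18-fold lower in OS-LM1 (-0.24, SE 0.08, adjusted p = 0.028, edgeR), a call lost without any of the 4 sgNTC18 libraries and without any of 6 of the 8 hairpin libraries (shPAX8-1 replicates 1, 2 and 3 and shPAX8-2 replicates 1, 3 and 4), with a log2 fold change then between -0.24 and -0.21. DTYMK was not called in 786-M1A (0.03, SE 0.10, adjusted p = 0.81) or in OS-LM1 (-0.03, SE 0.10, adjusted p = 0.88), and neither was MTHFD1 (-0.05, SE 0.13, adjusted p = 0.77, and -0.14, SE 0.09, adjusted p = 0.30). With the GC trend removed 5 of the 8 were called in 786-M1A, among them DTYMK at 0.51 (adjusted p = 0.011, edgeR) and TK1 at -0.54 (adjusted p = 3.4e-04). The share of all genes called under that setting is not given here, so nothing is read from the count. The 4 shPAX8-1 libraries of 786-M1A differed among themselves. Replicates 1 and 2 held more PAX8 (22.9 and 21.9 CPM) than replicates 3 and 4 (15.2 and 14.8), more TK1 (39.8 and 49.8 against 27.1 and 27.8) and less MTHFD2 (214.7 and 196.4 against 256.9 and 264.0). TK1 was called against shPAX8-2 with either pair left out, at -1.46 without the first pair and -0.74 without the second, and without the first pair its difference between the lines was called as well (0.65, adjusted p = 0.0034, edgeR).

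**Figure D4:**
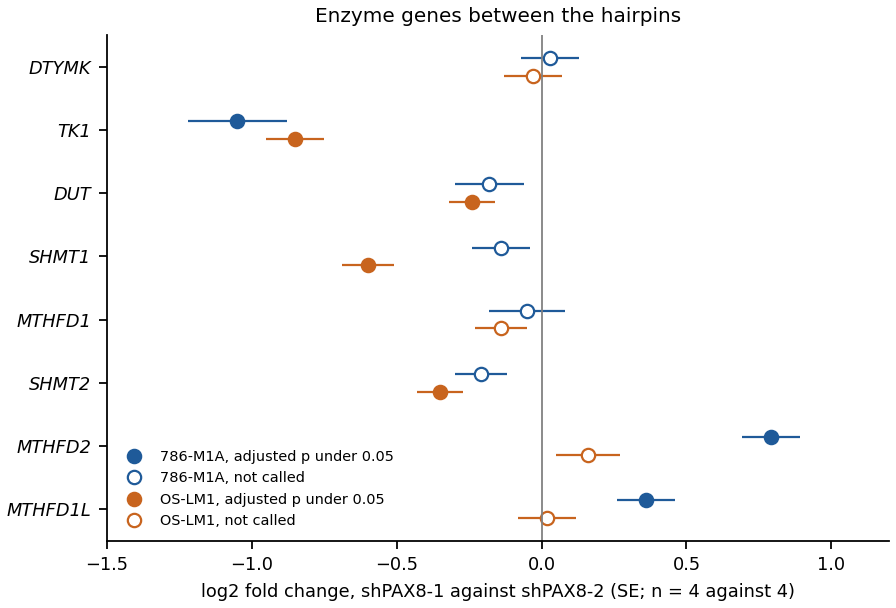
Log2 fold change of shPAX8-1 against shPAX8-2 (4 against 4 libraries, whiskers are the SE) for the 8 genes in 786-M1A (blue) and OS-LM1 (orange), filled where the adjusted p of edgeR is under 0.05. TK1 is filled and below 0 in both lines (-1.05 and -0.85), MTHFD2 and MTHFD1L are filled above 0 in 786-M1A only, and DTYMK lies at 0.03 and -0.03.

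The lines were also compared within each construct. Without depletion, in the sgNTC18 libraries, 4 of the 8 genes were called, beside 63.0% of all genes. DTYMK was 1.77-fold lower in OS-LM1 (log2 fold change -0.83, SE 0.09, adjusted p = 2.1e-08, edgeR) and MTHFD2 1.6-fold lower (-0.68, SE 0.10, adjusted p = 2.7e-06). SHMT1 was 1.27-fold higher (0.35, SE 0.08, adjusted p = 7.2e-04), and DUT was at the threshold (0.21, SE 0.09, adjusted p = 0.049). The DUT call was lost without any of 17 of the 24 libraries, with the lowest value (0.14, adjusted p = 0.20, edgeR) without 786-M1A sgNTC18 replicate 1. TK1 and SHMT2 were not called (-0.02, SE 0.14, adjusted p = 0.89, and -0.03, SE 0.08, adjusted p = 0.81), nor were MTHFD1 (0.20, SE 0.11) and MTHFD1L (-0.15, SE 0.09). In the shPAX8-1 libraries 6 of the 8 were called, beside 76.4% of all genes, and in the shPAX8-2 libraries 7, beside 76.9%. DTYMK was again lower in OS-LM1, 2.29-fold with shPAX8-1 (-1.20, SE 0.10, adjusted p = 2.5e-11) and 2.25-fold with shPAX8-2 (-1.17, SE 0.10, adjusted p = 4.7e-11). MTHFD2 was 7.58-fold lower with shPAX8-1 (-2.92, SE 0.11, adjusted p = 2.6e-18, edgeR) and 5.01-fold lower with shPAX8-2 (-2.32, SE 0.11, adjusted p = 2.4e-16). The remaining folate genes were higher in OS-LM1 with both hairpins. SHMT2 was higher by 0.86 and 0.97 on the log2 scale, SHMT1 by 0.33 and 0.76, MTHFD1 by 0.51 and 0.57 and MTHFD1L by 0.36 and 0.67 with shPAX8-1 and shPAX8-2, with adjusted p between 6.6e-11 and 0.0021 in edgeR. TK1 was called with shPAX8-2 (-0.48, SE 0.15, adjusted p = 0.0047) and not with shPAX8-1 (-0.24, SE 0.15, adjusted p = 0.14), but was called there without 786-M1A shPAX8-1 replicates 3 and 4 (-0.58, adjusted p = 4e-04, edgeR). With the GC trend removed TK1 turned to 0.25 with shPAX8-2 (adjusted p = 0.019) and to 0.40 in the sgNTC18 libraries (adjusted p = 3.8e-04), so the direction of its difference between the lines rests on that choice.

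Ranked by mean CPM over the 6 groups, DTYMK went from 786-M1A with sgNTC18 (119.2 ± 6.37, SD, n = 4) through OS-LM1 with sgNTC18 (67.2 ± 4.54) and the 786-M1A hairpins (35.7 ± 2.01 and 35.0 ± 3.52) to the OS-LM1 hairpins (15.6 ± 2.13 and 15.6 ± 0.687), and only the hairpin pairs overlapped. SHMT1 went from OS-LM1 with sgNTC18 (78.7 ± 5.88) and 786-M1A with sgNTC18 (61.7 ± 3.33) through OS-LM1 with shPAX8-2 (24.4 ± 1.76) and shPAX8-1 (16.5 ± 1.08) to 786-M1A with shPAX8-2 (14.4 ± 0.914) and shPAX8-1 (13.1 ± 0.230). No group in that order overlapped with the next, although the last 3 came so close that their edges are equal at the digits printed. Among 11848 other genes at an average log2 CPM of at least 1, the patterns most like DTYMK over the 24 libraries were those of C8orf33 (Pearson r = 0.981), TCF19 (0.980) and HAGH (0.978). Among those most like SHMT1 were TRIP13 (0.982) and SNX12 (0.979). The 24 libraries fall into 6 groups, so these values mostly compare group levels.

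The length that RSEM gave to MTHFD1L also differed between the constructs. This length is the mean over the transcripts of the gene, weighted by their estimated share, so it moves with the transcripts used. It was 2569.2 to 2779.9 bases in 786-M1A with sgNTC18 and 1902.4 to 2187.2 with the hairpins, and 2298.6 to 2367.5 and 2033.4 to 2298.3 bases in OS-LM1. The hairpin libraries thus lay below sgNTC18 in both lines, in OS-LM1 by less than a base at the nearest. Among genes whose length varied, 9.08% in 786-M1A and 9.69% in OS-LM1 were shorter in every hairpin library. None of the other 7 genes had a shorter length in every hairpin library of both lines, and TK1 and MTHFD1 had 1 length throughout. A shorter length raises TPM for the same counts, so the MTHFD1L difference is smaller in TPM (37.8 ± 1.15 against 29.5 ± 3.19 and 22.1 ± 2.49 in 786-M1A) than in CPM (53.8 ± 1.33 against 34.9 ± 2.75 and 27.2 ± 2.82).

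The neighbouring steps were described from lists of 64 genes in 5 pathways that exclude the 8. Of these, 57 were tested in 786-M1A, where 14 rose and 30 fell in shPAX8 against sgNTC18 libraries, and 60 in OS-LM1, where 14 rose and 35 fell. Over all genes 35.7% rose and 34.7% fell in 786-M1A and 36.4% and 37.1% in OS-LM1. Deoxynucleotide supply was the list with most genes falling, with 16 of 19 in 786-M1A and none rising, and 14 falling and 2 rising in OS-LM1, at a median log2 fold change of -1.34 and -0.80. The same 13 genes fell in both lines. TYMS, thymidylate synthase, fell 3.29-fold in 786-M1A (log2 fold change -1.72, SE 0.10, adjusted p = 1.8e-09, edgeR) and 3.06-fold in OS-LM1 (-1.61, SE 0.08, adjusted p = 6.9e-13). RRM2, the small subunit of ribonucleotide reductase, fell by 2.28 (SE 0.08) and 1.63 (SE 0.07) on the log2 scale. SAMHD1, which breaks down deoxynucleotides, fell by 2.93 (SE 0.12) and 2.06 (SE 0.09), and TYMP, the thymidine phosphorylase, by 2.45 (SE 0.18) and 2.00 (SE 0.36). The mitochondrial kinase TK2, the counterpart of TK1, fell by 0.27 (SE 0.11, adjusted p = 0.035, edgeR) and 0.36 (SE 0.09, adjusted p = 0.0017), and its call in 786-M1A was lost without any of 7 of the 12 libraries, with the smallest value (-0.21, adjusted p = 0.14) without sgNTC18 replicate 3. This contrast compares hairpins with a CRISPR guide for these lists too. The kind of construct and any difference in doxycycline exposure cannot be told apart from PAX8 loss.

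The folate list was mixed, as all genes tested were. In 786-M1A 7 of 18 tested genes rose and 6 fell, beside 35.7% and 34.7% of all genes. In OS-LM1 6 of 20 rose and 10 fell, beside 36.4% and 37.1%. With the GC trend removed the split was 6 to 8 and 6 to 13. FPGS, which adds the glutamate tail that keeps folates in the cell, fell by 2.38 (SE 0.13) and 0.60 (SE 0.10) on the log2 scale in 786-M1A and OS-LM1. GCSH of the glycine cleavage system fell by 1.38 (SE 0.12) and 1.63 (SE 0.11), and the reduced folate carrier SLC19A1 by 1.12 (SE 0.21) and 1.6 (SE 0.14). MTHFD2L, the paralogue of MTHFD2, rose from low levels (1.64 and 1.25 CPM with sgNTC18) by 1.59 (SE 0.25) and 0.79 (SE 0.18). The proton-coupled folate transporter SLC46A1 rose by 1.52 (SE 0.16) and 0.31 (SE 0.11). The adjusted p of these calls lay between 8.9e-10 and 0.014 in edgeR.

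The next 3 lists are short, and their counts stand beside 35.7% of all genes rising and 34.7% falling in 786-M1A. The shares in OS-LM1 were 36.4% and 37.1%. In the serine list 2 of 4 tested genes rose and 1 fell in 786-M1A, with 1 and 2 after removal of the GC trend, and 2 of 5 rose and 3 fell in OS-LM1. PHGDH, the entry step of serine synthesis, had 0 counts in all 12 libraries of 786-M1A, where 3 counts would be 0.0963 to 0.258 CPM. In OS-LM1 it rose from 3.40 ± 0.721 CPM (SD, n = 4) by 0.74 (SE 0.15, adjusted p = 1.9e-04, edgeR). PHGDH was there at 2.49 to 4.01 CPM with sgNTC18, 6.98 to 7.77 with shPAX8-1 and 3.40 to 5.26 with shPAX8-2, which overlapped with sgNTC18. PSAT1, the next step, was not called in 786-M1A (-0.22, SE 0.12, adjusted p = 0.12), although it was with the GC trend removed (-0.44, adjusted p = 2.8e-05, edgeR), without the filter on low counts (-0.29, adjusted p = 0.042), without shPAX8-1 replicate 4 (-0.27, adjusted p = 0.040) and without replicates 3 and 4 (-0.38, adjusted p = 0.0016), and fell by 0.50 (SE 0.09, adjusted p = 9.9e-05) in OS-LM1. PSPH, the last step, fell by 0.59 (SE 0.08) in 786-M1A and rose by 0.26 (SE 0.08) in OS-LM1. In purine synthesis, which uses formyl-folate, 2 of 9 rose and 5 fell in 786-M1A and 1 rose and 5 fell in OS-LM1, or none and 7 with the GC trend removed. PFAS fell by 2.26 (SE 0.11) and 1.88 (SE 0.10), GART, which takes up the formyl unit, by 0.57 (SE 0.11) and 0.95 (SE 0.07), and ADSL by 0.61 (SE 0.08) and 0.66 (SE 0.07). In the methionine cycle 3 of 7 rose in each line, and 2 fell in 786-M1A and 3 in OS-LM1 (2 and 3 there with the GC trend removed). AHCY, which hydrolyses S-adenosylhomocysteine, fell by 0.91 (SE 0.11) and 1.15 (SE 0.09), and AHCYL1 rose by 1.09 (SE 0.08) and 0.69 (SE 0.06).

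Of the 56 pathway genes tested in both lines, 21 fell in both (37.5%, beside 21.9% of all genes), 3 rose in both (5.36%, beside 19.7%), 8 rose in 786-M1A and fell in OS-LM1 (14.3%, beside 6.25%) and 5 the other way (8.93%, beside 6.25%). The difference between the lines was not tested for these genes. CTH, which makes cysteine from cystathionine, and ALDH1L2, a mitochondrial formyl-folate dehydrogenase, were picked out after their values were seen. CTH was at 3.81 to 5.01 CPM in 786-M1A with sgNTC18, 23.4 to 39.7 with shPAX8-1 and 17.8 to 18.8 with shPAX8-2. The OS-LM1 levels were 3.73 to 4.14, 2.73 to 3.53 and 2.00 to 2.59 CPM. It rose by 2.52 (SE 0.15) in 786-M1A and fell by 0.54 (SE 0.13) in OS-LM1. ALDH1L2 was at 3.76 to 5.18, 17.2 to 25.2 and 12.6 to 15.0 CPM in 786-M1A and rose by 2.00 (SE 0.14). In OS-LM1 it was at 8.1 to 10.7 CPM with sgNTC18, 9.23 to 12.9 with shPAX8-1 and 5.95 to 7.22 with shPAX8-2. There the shPAX8-1 libraries overlapped with sgNTC18 and the shPAX8-2 libraries lay below. The contrast of both hairpins with sgNTC18 did not call ALDH1L2 in OS-LM1 (-0.10, SE 0.11, adjusted p = 0.43, edgeR).

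**Figure D5:**
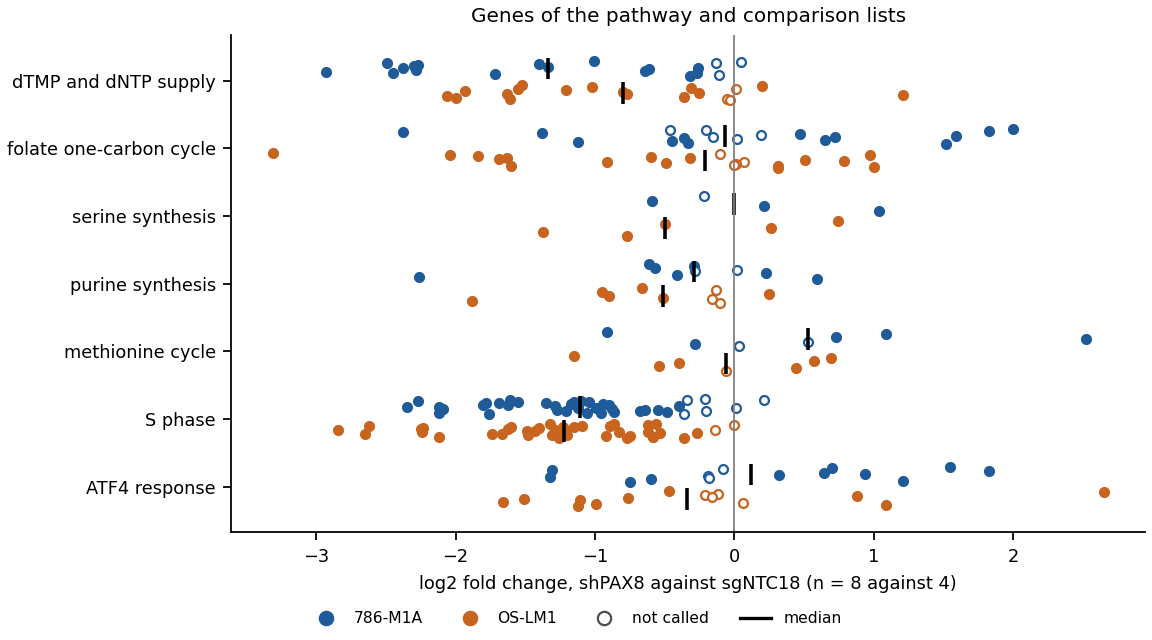
Log2 fold change of shPAX8 against sgNTC18 (8 against 4 libraries) for each tested gene of the 5 pathway lists and of the S phase and ATF4 lists, 786-M1A in blue and OS-LM1 in orange, open where the adjusted p of edgeR is 0.05 or more, with the median of each list as a black bar. The medians of deoxynucleotide supply (-1.34 and -0.80) and of S phase genes (-1.11 and -1.23) lie below 0 in both lines, while the folate list spreads to both sides.

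S phase genes and genes of the ATF4 response are given beside the 8 because TK1 belongs to the former by its known regulation and MTHFD2 to the latter. Of 40 S phase genes 34 fell in 786-M1A and 38 in OS-LM1 (34.7% and 37.1% of all genes), and none rose in either line. TYMS, RRM1 and RRM2 are not among the 40 and were counted with deoxynucleotide supply. CDC45, GINS2 and POLA1, all of the replication machinery, had log2 fold changes of -2.27, -1.80 and -2.09 in 786-M1A and -2.62, -2.84 and -2.65 in OS-LM1, with SE between 0.09 and 0.12. PCNA, the sliding clamp, fell by 0.88 (SE 0.16) and 0.53 (SE 0.09). The summed level of the 40 was 1434.0 to 1684.9 TPM in 786-M1A with sgNTC18, 481.6 to 656.1 with shPAX8-1 and 628.2 to 813.9 with shPAX8-2, and 1435.4 to 1646.3, 632.8 to 757.7 and 766.2 to 1002.5 TPM in OS-LM1. It was lower in every hairpin library, as were DTYMK, TK1, DUT, SHMT1 and MTHFD1, and its part in their levels was not tested. Of 14 genes of the ATF4 response, ATF4 itself among them, 7 rose and 4 fell in 786-M1A (35.7% and 34.7% of all genes). In OS-LM1 3 rose and 7 fell (36.4% and 37.1% of all genes), or 5 and 7 with the GC trend removed. CEBPB, ATF3 and SLC7A11 rose in both lines, by 1.83, 0.70 and 1.21 in 786-M1A and by 0.88, 2.65 and 1.09 in OS-LM1. Another 3 of the 14 rose in 786-M1A and fell in OS-LM1 as separate calls (21.4%, beside 6.25% of all genes), and the difference between the lines was not tested for them. They are named here after their values were seen: ASNS (log2 fold changes of 1.55 and -0.47), DDIT3 (0.94 and -0.76) and DDIT4 (0.32 and -1.51). PCK2, TRIB3 and SLC3A2 fell in both, with log2 fold changes of -1.32, -0.75 and -0.60 and of -1.66, -1.12 and -0.99. The part of these genes in the MTHFD2 levels was not tested. Of the renal epithelial markers, PAX8 as the target of the hairpins among them, all 7 tested fell in 786-M1A (34.7% of all genes). PAX2 had means there of 6.1 TPM with sgNTC18, 3.1 with shPAX8-1 and 6.2 with shPAX8-2, so only shPAX8-1 was lower. In OS-LM1 4 of 8 markers fell and 2 rose (37.1% and 36.4% of all genes). CDH6 fell by 2.89 (SE 0.10) and 2.81 (SE 0.08) and LHX1 by 2.09 (SE 0.11) and 1.97 (SE 0.13). The 2 that rose in OS-LM1, named after their values were seen, were KRT18 (1.13, SE 0.07), which fell in 786-M1A (-0.66, SE 0.09), and CA9 (2.45, SE 0.11), which was at most 0.18 TPM in 786-M1A. Of the markers of other cells 1 of 2 tested rose in 786-M1A and 3 of 4 in OS-LM1 (35.7% and 36.4% of all genes). None fell in the contrast of both hairpins with sgNTC18 (34.7% and 37.1% of all genes). Means of PDGFRB in 786-M1A were 195.9 TPM with sgNTC18, 90.2 with shPAX8-1 and 232.4 with shPAX8-2, so only shPAX8-1 was lower. In OS-LM1 the group means of PDGFRB were at most 0.3 TPM. CD68, known as a macrophage lysosomal protein and also found in other cells, rose by 0.56 (SE 0.12) and 1.69 (SE 0.11).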

How the data were processed

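RNA-seq was performed on 24 libraries, 4 for each of 3 constructs in each of 2 cell lines, grouped by their labels. According to the labels and the methods, reads were mapped by the authors with bowtie2 within RSEM, against hg38. The authors deposited for 26475 genes expected counts, which are not normalised, TPM, which are scaled to transcript length and to a fixed library total, and a mean transcript length weighted by isoform share. Versions and annotation release are not given in the sources used here. Reads were assigned to transcripts as estimates, so counts of paralogues are shared out.

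Expected counts were rounded and analysed with edgeR 4.0.16 in R 4.3.3. The filterByExpr function of edgeR set aside low genes and left 14452 in 786-M1A, 15049 in OS-LM1 and 15665 in all 24 libraries. Libraries were normalised by TMM, and robust quasi-likelihood tests were adjusted by Benjamini-Hochberg over all genes tested, with 0.05 as the threshold. The hairpins and shPAX8 against sgNTC18 were compared within each line (12 libraries), and the lines over all 24. Log2 CPM uses a prior count of 2. The procedure was tested on simulated data. The labels do not say that replicates are separate cultures, so p-values measure the spread between these libraries. No replicate pair was as close as sampling noise. In 786-M1A the hairpin libraries were closest within replicates 1 and 2 and within replicates 3 and 4. With shPAX8-1 the chi-square per gene was 14.11 and 3.73 within these pairs and 44.79 to 77.47 across them. With shPAX8-2 it was 3.96 and 11.69 within and 14.94 to 19.24 across. Precision is set by depth and by n = 4, and if such pairs are not independent, p-values that use these libraries may be too small.

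The genes, lists and tests were chosen with earlier results of these data known. Named were the 8 genes, PAX8, a fixed set of key genes (among them TYMS, RRM2, TK2, PHGDH, PSAT1, PSPH, MTHFD2L and PCNA), from each list up to 3 rising and 3 falling genes with the largest mean change, called in the same direction in both lines (mean log2 CPM at or above 1), and the 3 genes most like DTYMK and SHMT1. Some genes that this rule names are not reported here. Of 64 pathway genes, 62 were found in the files. Alternatives were RLE normalisation, no filter beyond 1 count, DESeq2 1.42.0 (the tool of the study), each library left out, a replicate block, the compared groups alone, a threshold of 0.01, a single hairpin, 786-M1A shPAX8-1 replicates left out in pairs, and a GC trend removed with a spline (a GC value was had for 89.9% to 90.3% of genes). The GC trend for shPAX8 against sgNTC18 and for the lines, and the pairs for shPAX8 against sgNTC18, were added after seeing the data. Replicate numbers did not pair the libraries throughout: residuals of same-numbered libraries of a line correlated between -0.600 and 0.543. Between the hairpins of 786-M1A they correlated between 0.086 and 0.543.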

Additional observations from a re-analysis of the deposited data

Results flagged for a closer look

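MTHFD1 in OS-LM1 with sgNTC18 had 1 library far from the other 3, replicate 2 at 87.7 CPM against 101.7 to 102.2. Of 48 groups of 4 libraries checked in this way, 2.4 would be marked by chance. The difference between the lines in shPAX8-1 against shPAX8-2 was called by edgeR for MTHFD2 (-0.60 on the log2 scale for OS-LM1 minus 786-M1A, adjusted p = 0.0040) and for SHMT1 (-0.43, adjusted p = 0.012). MTHFD2 also lay above sgNTC18 in every shPAX8 library of 786-M1A (log2 fold change 1.06) and below it in every one of OS-LM1 (-0.92), a difference between the lines that was not tested.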

How the results depend on the processing

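Of 210 recomputed counts of called genes, 205 stayed within 1.5 times the reported value. The 5 that did not were the count for shPAX8-1 against shPAX8-2 in 786-M1A, 5 in place of 3 with the GC trend removed, and that for the difference between the lines in the same contrast, 2 as reported, 4 without 786-M1A shPAX8-1 replicates 1 and 2, 1 without replicates 3 and 4, 4 with the GC trend removed and 1 at an adjusted p under 0.01. With each library left out in turn, 3 to 4 of the 8 were called between the hairpins in 786-M1A and 3 to 4 in OS-LM1, 3 to 4 between the lines with sgNTC18, 6 to 7 with shPAX8-1, 7 to 8 with shPAX8-2 and 2 to 3 in the difference between the lines, and 41 to 45 and 45 to 49 pathway genes were called in 786-M1A and OS-LM1. A fit with only the groups compared is the reported fit for shPAX8 against sgNTC18 and gives no other value. Shares of all genes called under these other settings, and with the replicate block below, are not given here. Whether the 8 gained or lost calls more than other genes did is therefore not read from these counts.

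Replicate numbers are shared by the groups of a line, but same-numbered libraries did not deviate together throughout (mean correlation 0.100 in 786-M1A and -0.096 in OS-LM1). Between the hairpins of 786-M1A all 4 such correlations were above 0 (0.400, 0.280, 0.543 and 0.086), while those between hairpins and sgNTC18 fell to -0.600, and 4 of 12 and 1 of 12 libraries correlated best with their own number. With a replicate block the counts were 3 and 3 between the hairpins in 786-M1A and OS-LM1, 3, 6 and 7 between the lines with sgNTC18, shPAX8-1 and shPAX8-2, 2 for the difference between the lines, and 44 and 47 for the pathway genes. Among the 8 genes the block ended only the 2 calls of DUT, between the hairpins in OS-LM1 (adjusted p = 0.067) and between the lines with sgNTC18 (adjusted p = 0.058). The block spans the sgNTC18 libraries too, so it cannot test a pairing that only the hairpins share.

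Of 2753 single-gene values 2636 kept side and sign, 1869 of them in fits with a library left out. Another 42 turned in sign, 42 lost a call, 20 gained a call and 13 moved in size with the GC trend removed. Between the hairpins in 786-M1A, SHMT1 turned to 0.06 and SHMT2 to 0.17 with the GC trend removed, and MTHFD1 to 0.07 without shPAX8-1 replicates 1 and 2. In OS-LM1, DTYMK turned to 0.11 with the GC trend removed and to 0.01 without the filter and with only the groups compared. Between the lines with the GC trend removed, TK1, DUT and SHMT2 turned to 0.40, -0.02 and 0.13 with sgNTC18, TK1 and DUT to 0.07 and -0.10 with shPAX8-1 and to 0.25 and -0.14 with shPAX8-2, and TK1 turned to 0.15 with shPAX8-1 without 786-M1A shPAX8-1 replicates 1 and 2. In the difference between the lines, DTYMK, TK1 and MTHFD1 turned to 0.00, -0.08 and 0.07 without replicates 3 and 4, SHMT2 to 0.02 without replicates 1 and 2, and TK1 and DUT to -0.18 and 0.04 with the GC trend removed. With a library left out, signs turned for DTYMK (-0.04 to 0.09) and MTHFD1 (-0.13 to 0.03) between the hairpins in 786-M1A, for DTYMK (-0.09 to 0.05) and MTHFD1L (-0.03 to 0.08) in OS-LM1, for TK1 (-0.10 to 0.03) and SHMT2 (-0.07 to 0.01) between the lines with sgNTC18, and for DTYMK (-0.12 to 0.04), DUT (-0.14 to 0.02) and MTHFD1 (-0.15 to 0.02) in the difference between the lines. The cause of these changes was not tested. Of these, the values of TK1 between the lines with the GC trend removed were called with sgNTC18 and shPAX8-2, and the others were not called. MTHFD1L passed the threshold in the difference between the lines with DESeq2 (-0.32, adjusted p = 0.046) and with the GC trend removed (-0.46, adjusted p = 0.017), as SHMT2 did with the GC trend removed (-0.42, adjusted p = 0.0046). SHMT2 was called between the hairpins in 786-M1A without shPAX8-1 replicate 1 (-0.29, adjusted p = 0.018). MTHFD1 passed between the lines with sgNTC18 when only those groups entered the fit (0.20, adjusted p = 0.029).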
